A study of Mus musculus with 15 samples.

Results

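The hepatic allografts taken on postoperative day 5 (POD5) were compared with the hepatic controls, 3 arrays of each, which together were 6 of the 15 arrays of the study. The 6 arrays were chosen by their sample titles, and the genes described were those whose probe lay well above background on every array of at least 1 of the groups. The study transplanted mouse hearts or livers between strains and measured gene expression in the grafts during acute rejection, with 5 groups of 3 arrays. For the liver, a whole male B10.BR (BR, H-2k) liver was placed orthotopically into a male B10.D2 (D2, H-2d) recipient, which kept its own immune system, and no immunosuppressive drug was described. The grafts were taken at POD5, stored in RNAlater and extracted whole, so an allograft array held RNA of the donor liver and of the recipient cells inside it. The controls were labelled as normal liver, while other passages of the paper treat them as isografts, and neither the strain nor an operation on the controls was given in the labels. The mice's age was not given in the sources used here. Nothing in the labels said that the arrays of a group came from separate animals beyond their numbering, so P-values measured the spread between these arrays.

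The liver consists mainly of hepatocytes, which make most plasma proteins, detoxify foreign compounds with cytochrome P450 and conjugating enzymes, form bile acids and urea, and switch between making and burning fat. In a graft between strains that differ at the H-2 complex, the recipient's T cells recognise donor cells, multiply, enter the tissue and release interferon gamma, which turns on antigen presentation, guanylate-binding proteins and the chemokines that draw in more T cells. Cytotoxic T cells and natural killer cells kill with perforin and granzymes, and dividing cells of any kind pass through DNA replication and mitosis. These arrays measured whole tissue, so fewer cells of a type and less RNA per cell cannot be told apart.

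Values are log2 of the processed intensity after quantile normalization of the 6 arrays, a gene is its brightest probe, and a difference is the allograft mean minus the control mean on that scale. The raw signal of the allografts was higher, with a 75th percentile of 338 to 478 against 92.1 to 226 in the controls, and 58.2% to 66.2% of probes were well above background in the allografts against 52.5% to 57% in the controls. Control 1 was the dimmest array and correlated over all probes at 0.970 and 0.961 with the other controls, which correlated at 0.979 with each other. Allografts 1 and 2 correlated at 0.993, and each of them with allograft 3 at 0.979. Allograft 3 lay on a slide with cardiac arrays and was scanned on another day than the other 5 arrays, which shared 1 scan day. Of these 6 arrays, no allograft shared a slide with a control. The hepatocyte genes Alb, Ttr and Apoa1 were well above background on all 6 arrays, as the liver label says.

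Of 18211 named genes, 13340 (73.3%) passed the background filter: 11742 were well above background on all arrays of both groups, 1513 only on those of the allografts and 85 only on those of the controls. With limma and Benjamini-Hochberg adjustment over all 41155 probes at 0.05, 655 of the 13340 genes (4.91%) were called higher in the allografts and 187 (1.4%) lower. Among the 11742 genes that both groups showed above background, 442 (3.76%) were called higher and 175 (1.49%) lower. The 3 allografts lay above the 3 controls in 2666 genes (20%) and below them in 2454 (18.4%). Over all probes, 1096 (2.66%) were called higher and 410 (0.996%) lower. Leaving out 1 array changed these counts: 87 probes were called higher and 5 lower without allograft 1, 3 and 0 without allograft 2, 339 and 21 without allograft 3, 901 and 215 without control 1, 365 and 55 without control 2, and 535 and 175 without control 3. With allograft 3 and control 1 both left out, 0 probes were called by limma, and 8625 had an unadjusted P under 0.05. A difference that missed the threshold is given by its values.

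**Figure D1:**
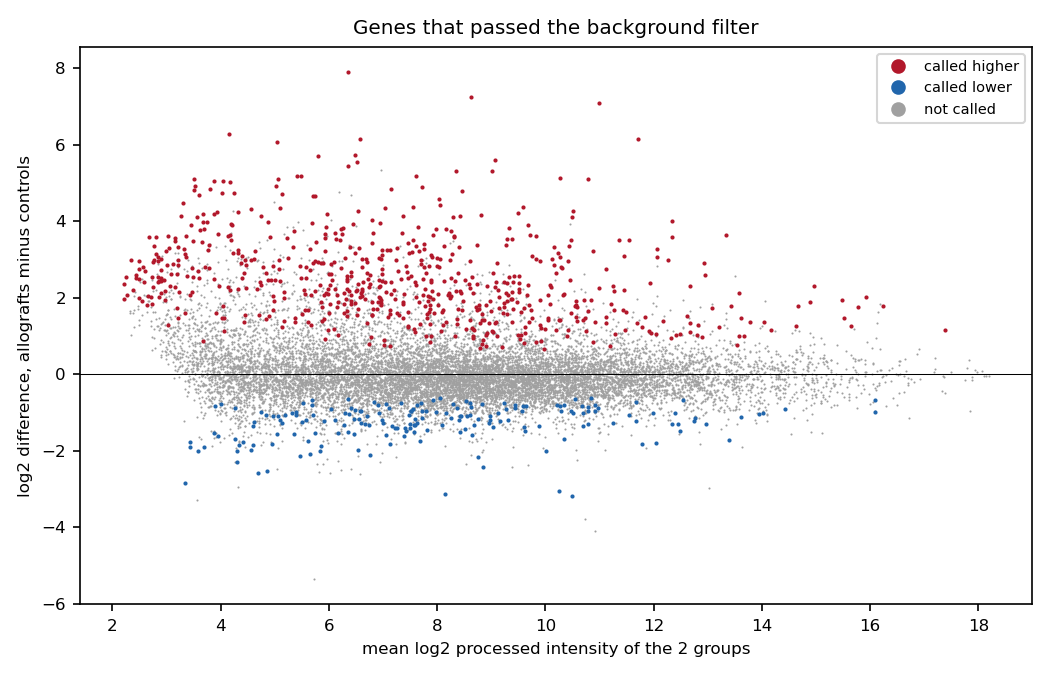
Log2 difference between hepatic allografts at POD5 and controls (vertical) against the mean log2 processed intensity of both groups (horizontal), 1 point per gene for the 13340 genes past the background filter, red where called higher (655) and blue where called lower (187). Called genes reach a difference of 7.25 for Gzmb, exceeded only by Cd8a, which no control showed above background, and of -3.19 for Slc22a7 on the lower side.

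The lists of genes described next were drawn up from textbook roles of each cell type or pathway, and their members are given by counts and by the median difference of all measured members. The median over all probes was -0.07. Members that passed the filter only through the allografts were selected by the group in which they were bright. Of all 1513 genes that passed that way, 14.1% were called higher and 0 lower. For most immune and division lists, the count among members above background on all 6 arrays is therefore given beside the first one.

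**Figure D2:**
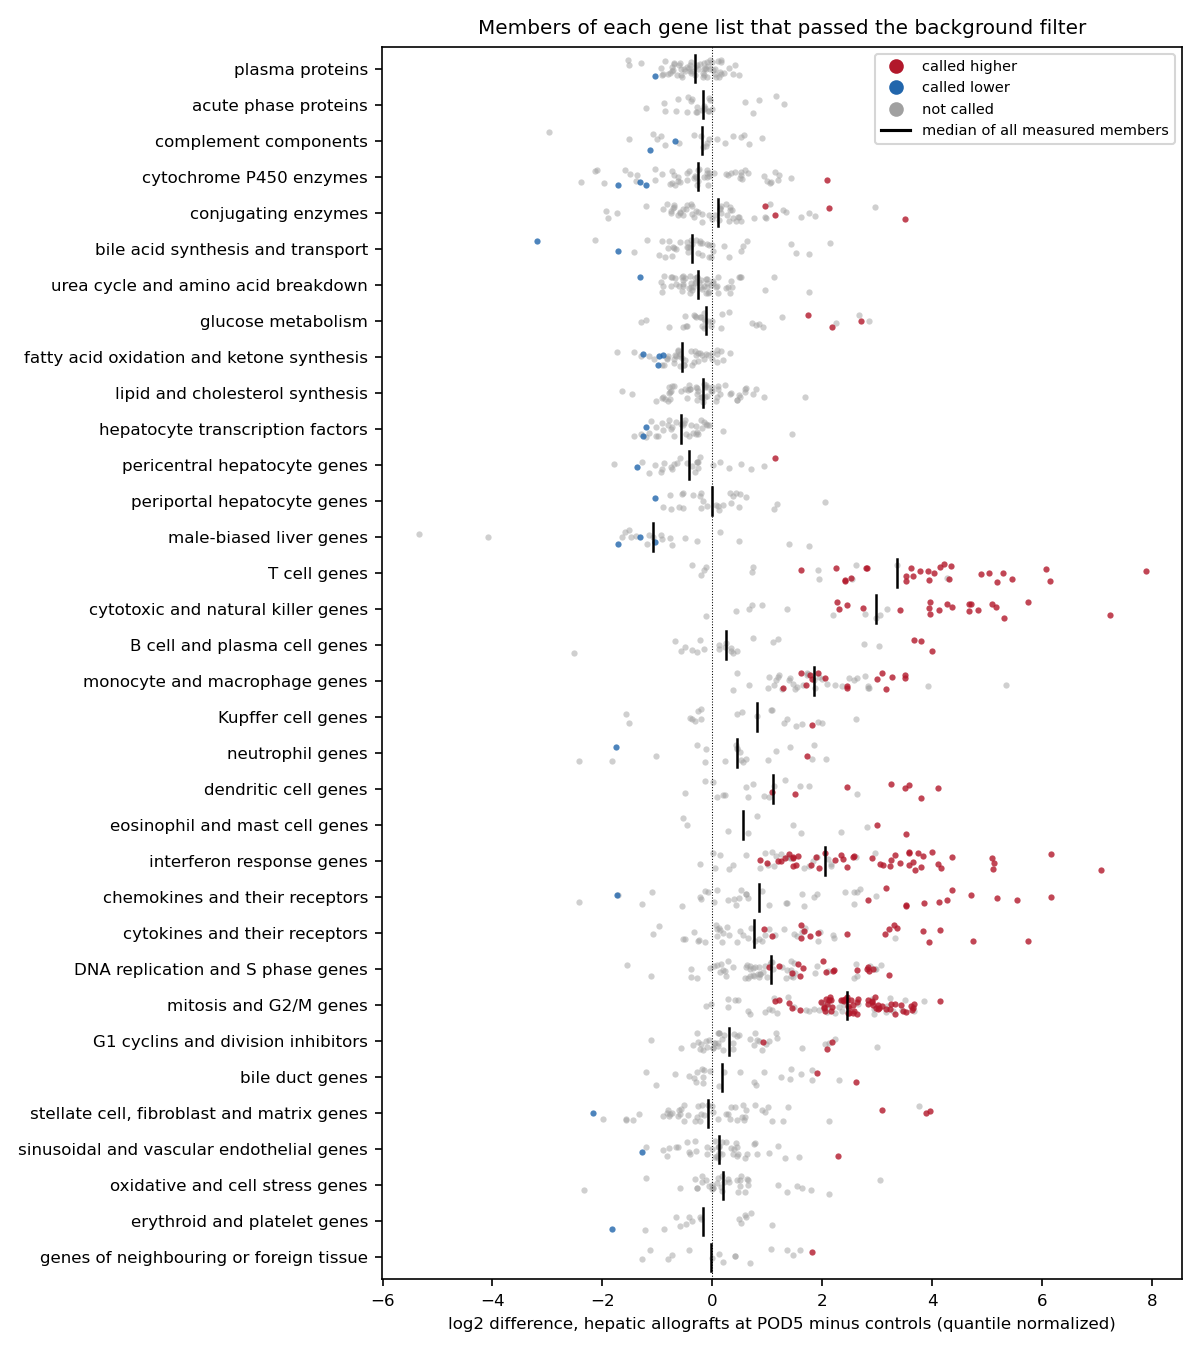
Each row is a gene list, each point a member that passed the background filter at its log2 difference, allografts minus controls, and the black bar the median of all measured members. T cell genes (median 3.37), cytotoxic genes (2.99), mitosis genes (2.45) and interferon response genes (2.06) lie to the right, and most hepatocyte lists lie between -0.56 and 0.1.

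The 10 genes with the largest called rise were mostly those of cytotoxic T cells and of the interferon gamma response. They were Cd8a, Gzmb, Ubd, Apobec2, Cxcl9, Pdcd1, Cd247, Ifng, Ly6f and Ms4a4b, and all of them separated the 3 allografts from the 3 controls, which the rule for naming them required. Cd8a encodes the alpha chain of the co-receptor of cytotoxic T cells. Its brightest probe read 9.92, 10.39 and 10.57 on the allografts and 2.34, 2.44 and 2.44 on the controls, and it was not well above background on any control array, so the allografts were at least 103-fold higher (adjusted P = 0.00265). Its other 2 probes were called higher too. Ms4a4b, a surface protein of T cells, read 11.41, 11.96 and 12.22 on the allografts and 5.93, 6.48 and 6.37 on the controls (difference 5.60, SE 0.27, adjusted P = 0.00558). Ly6f read 8.47, 8.63 and 8.81 on the allografts and 1.21, 3.46 and 4.16 on the controls (difference 5.70, SE 0.77, adjusted P = 0.0291, above background on 1 of 3 controls). Apobec2 read 6.53, 7.50 and 7.83 on the allografts and was not well above background on any control (at least 12.8-fold, adjusted P = 0.00602). Apobec2 belongs to a deaminase family and is known mainly from muscle.

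T cell genes were higher in the allografts as a group. Of 43 measured, 39 passed the filter, 27 were called higher against 4.91% of all genes, and 0 lower. Among the 18 that were above background on all 6 arrays, 12 were called higher against 3.76%. The median difference was 3.37, or 2.80 with genes that no control showed above background set to their lower bound. The mean log2 signal of the list was 6.83, 7.23 and 7.63 on the allografts and 3.94, 4.45 and 4.24 on the controls.

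The chains of the T cell receptor complex came first. Cd3d read 10.50, 11.06 and 11.43 on the allografts and 5.56, 6.22 and 5.33 on the controls (difference 5.30, SE 0.34, adjusted P = 0.0072). Cd3g read 8.91, 9.01 and 9.33 on the allografts and 2.41, 4.42 and 4.07 on the controls (difference 5.45, SE 0.55, adjusted P = 0.016, above background on 2 of 3 controls). Cd247, the zeta chain, read 7.63, 8.20 and 8.42 on the allografts and was not well above background on any control, at least 22.2-fold higher (adjusted P = 0.00813). The groups did not overlap in any of these chains. Cd3e, the epsilon chain of the same complex, did not follow on its only probe, which read 7.29, 7.55 and 6.67 on the allografts and 6.31, 6.23 and 6.75 on the controls (difference 0.74, SE 0.28, adjusted P = 0.231). The kinase Lck, which acts next to the receptor, rose (difference 4.89, SE 0.39, adjusted P = 0.00962), whereas the single probe of Zap70 read 8.92, 9.30 and 9.24 on the allografts and 9.15, 9.47 and 9.16 on the controls. Cd4, the co-receptor of helper T cells, read 4.65, 4.78 and 4.54 on the allografts and 4.76, 4.77 and 4.88 on the controls on its only probe, with the groups overlapping (difference -0.15, SE 0.12, adjusted P = 0.548).

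Receptors that restrain T cells rose beside those that activate them. Pdcd1, the inhibitory receptor PD-1, read 9.29, 9.30 and 10.39 on the allografts and 3.50, 1.68 and 5.34 on the controls (difference 6.15, SE 0.97, adjusted P = 0.0389, above background on 1 of 3 controls). Lag3, Havcr2 and Ctla4, which are inhibitory as well, were also called higher. Their values were a difference of 3.53 for Lag3 (SE 0.45, adjusted P = 0.0261) and of 3.52 for Havcr2 (SE 0.30, adjusted P = 0.0112), each above background on 2 of 3 controls. Ctla4 was not well above background on any control and at least 2.35-fold higher in the allografts (adjusted P = 0.00558). On the activating side Cd28, Icos, Cd27 and Tnfrsf9 were called higher, with Tnfrsf9 reading 6.03, 6.20 and 7.62 on the allografts and 1.30, 2.08 and 2.20 on the controls (not well above background on any control, at least 8.05-fold higher, adjusted P = 0.0175). Tbx21, the factor of interferon-producing T cells, was called higher (difference 4.03, SE 0.53, adjusted P = 0.0278), while Gata3 (difference 4.27, SE 0.80, adjusted P = 0.0573, above background on 1 of 3 controls) and Eomes (not well above background on any control, at least 1.44-fold higher, adjusted P = 0.0619) were not. Foxp3, which marks regulatory T cells, did not pass the background filter. Il2rb, a chain of the interleukin 2 receptor, rose (difference 4.14, SE 0.41, adjusted P = 0.0157).

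Cytotoxic and natural killer genes rose likewise. Of 31 passing members (of 37 measured), 20 were called higher, against 4.91% of all genes. Among the 10 above background on all 6 arrays, 7 were called higher, against 3.76%. Granzyme B, a protease that cytotoxic cells inject into their targets, had the largest difference of the list. Gzmb read 12.10, 12.35 and 12.31 on the allografts and 4.57, 4.55 and 5.88 on the controls (difference 7.25, SE 0.40, adjusted P = 0.00602). Prf1, the pore-forming perforin, read 7.83, 8.39 and 7.97 on the allografts and was not well above background on any control, at least 21.1-fold higher (adjusted P = 0.0083). Nkg7, a protein of cytotoxic granules, read 11.27, 11.77 and 12.01 on the allografts and 6.23, 6.90 and 5.96 on the controls (difference 5.32, SE 0.32, adjusted P = 0.00702). Gzma and Gzmk were called higher, Gzmm had a difference of 0.67 (adjusted P = 0.221), and Gzmc, Gzmd, Gzme, Gzmf and Gzmg did not pass the background filter. Among receptors of natural killer cells, Klrd1, Klrk1 and Klrc1 were called higher, all of which activated cytotoxic T cells also carry. Klrb1c, which encodes NK1.1, was not called (difference 0.72, SE 0.34, adjusted P = 0.304, above background on 1 of 3 controls), and Ncr1, the defining receptor of natural killer cells, did not pass the filter.

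B cell and plasma cell genes were mostly not called. Of 24 passing members (of 31), 3 (12.5%) were called higher, against 4.91% of all genes, and the median difference was 0.26. Of the 24, 7 passed only through the allografts. Among the 17 above background on all 6 arrays, 1 was called higher, against 3.76%. The members called higher were Cd74, Irf4 and Btla. Cd74 is the invariant chain of class II antigen presentation and responds to interferon gamma in many cells, and Irf4 and Btla are expressed by activated T cells too. Which cells carried these transcripts here was not tested. Cd79a, a chain of the B cell receptor (difference -0.37, SE 0.47, adjusted P = 0.697, above background on 2 of 3 controls) and Ms4a1, which encodes CD20 (difference 0.75, SE 0.54, adjusted P = 0.492), were not called, and Jchain, carried by plasma cells, had a difference of 0.13 (adjusted P = 0.918).

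Monocyte and macrophage genes were higher throughout, and fewer than a majority of them were called. All 50 members that passed had a positive difference, 41 separated the groups (background 20%) and 15 were called, against 4.91% of all genes. Among the 42 above background on all 6 arrays, 14 were called, against 3.76%. The mean log2 signal of the list was 10.13, 9.88 and 10.03 on the allografts and 7.07, 8.5 and 8.42 on the controls, with control 1 the lowest. Itgax, an integrin of dendritic cells and macrophages, read 9.39, 9.55 and 9.0 on the allografts and 5.88, 5.75 and 5.78 on the controls (difference 3.51, SE 0.18, adjusted P = 0.00558). Ccr2, the receptor that brings monocytes out of the blood, read 8.98, 8.75 and 9.44 on the allografts and 5.34, 6.5 and 5.86 on the controls (difference 3.16, SE 0.35, adjusted P = 0.0187), and Ly6c2, a marker of the same monocytes, was called higher too (difference 3.00, SE 0.20, adjusted P = 0.00788). Adgre1, which encodes the macrophage antigen F4/80, read 12.08, 12.20 and 11.54 on the allografts and 9.24, 11.38 and 11.40 on the controls and was not called (difference 1.27, SE 0.65, adjusted P = 0.337), with control 1 far below the other controls. Coro1a and Cd52, which most leukocytes express, rose (difference 3.51, SE 0.38, adjusted P = 0.0176 and difference 3.28, SE 0.28, adjusted P = 0.0106).

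Genes of resident Kupffer cells, the liver's own macrophages, were mostly not called. Of 21 members, 1 (4.76%) was called higher, against 4.91% of all genes. It was Spic, a factor of iron-recycling macrophages, at 9.84, 9.87 and 9.71 on the allografts and 7.33, 8.42 and 8.22 on the controls (difference 1.82, SE 0.31, adjusted P = 0.0463). Of the same members 12 lay above all controls on every allograft and 3 below them, against 20% and 18.4% of all genes, and the median difference was 0.81. Of the markers most specific to Kupffer cells, Clec4f read 12.05, 11.94 and 11.59 on the allografts and 11.55, 12.71 and 12.55 on the controls. Vsig4 read 9.97, 9.90 and 7.92 on the allografts and 7.80, 10.24 and 10.68 on the controls. Both had their groups overlapping and were not called, and Timd4 had a difference of 1.52 (adjusted P = 0.157). Cd163, a scavenger receptor, read 6.88, 7.68 and 6.36 on the allografts and 8.03, 8.55 and 9.04 on the controls and was not called (difference -1.57, SE 0.43, adjusted P = 0.123). The list's mean log2 signal was 10.48, 10.53 and 10.05 on the allografts against 8.93, 10.08 and 10.15 on the controls.

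Neutrophil genes showed no common movement. Of 22 passing members, 1 was called higher and 1 lower (4.55% each), against 4.91% and 1.4% of all genes. Of the 22, 9 passed only through the allografts. Hdc, which makes histamine, was called higher (difference 1.72, SE 0.19, adjusted P = 0.018) and Mpo, the granule myeloperoxidase, lower (difference -1.75, SE 0.22, adjusted P = 0.0242). S100a8, an abundant neutrophil protein, read 7.98, 7.19 and 7.82 on the allografts and 6.47, 8.76 and 8.15 on the controls, with the groups overlapping (difference -0.13, SE 0.63, adjusted P = 0.934). Dendritic cell genes had 8 of 24 passing members called higher, against 4.91% of all genes. Among them were the class II genes H2-Aa and H2-Ab1, described with the interferon response. Of the 17 above background on all 6 arrays, 7 were called higher, against 3.76%. Xcr1, which marks cross-presenting dendritic cells, had a difference of -0.13 (adjusted P = 0.898). Of the eosinophil and mast cell list, 2 of 11 passing members (18.2%) were called higher, against 4.91% of all genes. Of the 11, 6 passed only through the allografts. Among the 5 above background on all 6 arrays, 1 was called higher, against 3.76%. The called members were Siglecf (not well above background on any control, at least 1.18-fold higher, adjusted P = 0.00536) and the chemokine Ccl24. Epx and Prg2, the granule proteins that define eosinophils, did not pass the background filter.

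Interferon response genes were higher almost throughout. All 71 measured members passed the filter, 45 were called higher against 4.91% of all genes and 0 lower, and 63 lay above all controls on every allograft, against 20%. Of the 67 above background on all 6 arrays, 43 were called, against 3.76%. The mean log2 signal was 11.67, 11.46 and 11.62 on the allografts and 9.01, 9.23 and 9.5 on the controls.

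The largest differences were those of Ubd, Cxcl9, Tgtp1, Ido1 and Gbp2. Cxcl9, a chemokine for activated T cells, read 14.53, 14.52 and 15.32 on the allografts and 8.08, 9.21 and 8.61 on the controls (difference 6.16, SE 0.38, adjusted P = 0.00702). Ubd, a ubiquitin-like protein, read 15.05, 13.75 and 14.80 on the allografts and 7.29, 7.41 and 7.65 on the controls (difference 7.08, SE 0.37, adjusted P = 0.00558). Ido1, which breaks down tryptophan, read 8.09, 7.54 and 7.20 on the allografts and 1.18, 2.53 and 3.78 on the controls (difference 5.11, SE 0.69, adjusted P = 0.0287, above background on 1 of 3 controls). In each of these the allografts lay above every control. Among guanylate-binding proteins, which act against microbes inside cells, Gbp2 read 13.38, 13.18 and 13.41 on the allografts and 7.32, 8.47 and 8.89 on the controls (difference 5.10, SE 0.42, adjusted P = 0.00999). Every other measured member, Gbp2b and Gbp3 to Gbp9, was called higher with differences from 2.34 (Gbp8) to 3.83 (Gbp6). Tgtp1, a related GTPase, read 13.10, 12.99 and 12.44 on the allografts and 6.67, 7.60 and 8.85 on the controls (difference 5.13, SE 0.58, adjusted P = 0.0193), though its near-identical neighbour Tgtp2 may share the probe.

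Some members of the list serve antigen presentation. For class II, H2-Aa read 12.85, 12.66 and 12.13 on the allografts and 7.45, 9.10 and 8.77 on the controls (difference 4.11, SE 0.48, adjusted P = 0.0214). H2-Ab1 read 14.25, 13.92 and 14.22 on the allografts and 10.46, 10.17 and 10.99 on the controls (difference 3.59, SE 0.25, adjusted P = 0.00793). Their transactivator Ciita was called higher (difference 3.25, SE 0.21, adjusted P = 0.00723). For class I, the peptide transporter Tap2, the immunoproteasome subunits Psmb8, Psmb9 and Psmb10 and the heavy chain H2-K1 were called higher, with H2-K1 at 17.02, 16.99 and 17.38 on the allografts and 15.33, 15.55 and 15.14 on the controls (difference 1.79, SE 0.18, adjusted P = 0.0157). Tap1 (difference 2.17, SE 0.45, adjusted P = 0.0697) and B2m (difference 0.96, SE 0.21, adjusted P = 0.0786) were not called, although B2m read 15.69, 15.64 and 15.40 on the allografts and 14.29, 14.57 and 14.97 on the controls. Donor and recipient carry different H-2 alleles, and unequal binding of an H-2 probe to them was not tested. The ligands of PD-1, Cd274 (difference 3.70, SE 0.44, adjusted P = 0.0215) and Pdcd1lg2 (not well above background on any control, at least 1.82-fold higher, adjusted P = 0.0176), rose together with their receptor.

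Further members of the list were called in part. Ifit1 (difference 1.36, SE 0.26, adjusted P = 0.0572), Isg15 (difference 1.67, SE 0.32, adjusted P = 0.0582), Rsad2 (difference 1.01, SE 0.48, adjusted P = 0.313) and Irf7 (difference 0.87, SE 0.52, adjusted P = 0.403) were not called. Ifit3 (difference 1.40, SE 0.23, adjusted P = 0.0453) and Oas1a (difference 1.57, SE 0.27, adjusted P = 0.0476) were called higher. Of the interferons themselves, Ifng, which encodes interferon gamma, read 8.88, 9.14 and 10.03 on the allografts and 2.85, 3.96 and 4.03 on the controls (difference 5.74, SE 0.46, adjusted P = 0.00983, above background on 2 of 3 controls). Ifnb1, which encodes interferon beta, did not pass the background filter.

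The stretches before the start sites of these genes are shown because so many of them moved together. In the 250 bases before each start (RefSeq, GRCm38.p6), GAAA followed after any 2 bases by GAAA again, the core letters of the interferon-stimulated response element (ISRE), was searched on both strands, with TTCNNNGAA, the gamma-activated site (GAS), which reads the same on both. Windows were on hand for 50 of the 71 genes, 57 windows in all. Of these, 21 (36.8%) held the ISRE letters against 2.98% of all 32841 windows, and 10 (17.5%) the GAS letters against 7.02%. The list was made of genes known to answer interferon, so these shares describe the list. Among members called higher with a single window, the largest differences with either motif were those of Tgtp1 and Gbp2, printed 5′ to 3′ on the gene's strand with the motif letters in capitals. In Tgtp1 (chr11:48992247-48992496, minus strand) the GAS letters began 88 bases before the start and the ISRE letters 77 bases before it, without overlap, and in Gbp2 (chr3:142620413-142620662, plus strand) the ISRE letters began 59 bases before the start, on the opposite strand.
Tgtp1: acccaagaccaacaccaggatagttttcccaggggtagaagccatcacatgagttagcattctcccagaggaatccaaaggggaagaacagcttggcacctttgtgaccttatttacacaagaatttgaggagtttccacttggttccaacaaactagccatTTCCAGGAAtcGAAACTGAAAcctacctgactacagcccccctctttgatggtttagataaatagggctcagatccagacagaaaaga
Gbp2: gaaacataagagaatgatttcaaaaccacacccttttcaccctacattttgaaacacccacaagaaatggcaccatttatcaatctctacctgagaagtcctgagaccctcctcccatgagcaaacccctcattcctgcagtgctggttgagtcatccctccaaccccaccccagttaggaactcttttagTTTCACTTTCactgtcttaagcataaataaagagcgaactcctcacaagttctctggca

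Chemokines are given by the cells they act on. Of 46 chemokine genes past the filter (of 59), 12 were called higher and 1 lower, against 4.91% and 1.4% of all genes. Of these 46, 15 passed only through the allografts. Among the 31 above background on all 6 arrays, 9 were called higher, against 3.76%. Ligands for T cells and monocytes rose. Ccl3 read 8.84, 9.52 and 9.50 on the allografts and 2.42, 4.68 and 4.12 on the controls (difference 5.55, SE 0.62, adjusted P = 0.019, above background on 2 of 3 controls). Ccl4 read 9.63, 9.96 and 11.02 on the allografts and 4.62, 5.21 and 5.23 on the controls (difference 5.19, SE 0.41, adjusted P = 0.00983). The related ligands Ccl5, Ccl2, Xcl1 and Cxcl10 were called higher as well. Of receptors, Cxcr3, which binds Cxcl9 and Cxcl10 (difference 4.13, SE 0.33, adjusted P = 0.00999), and Cxcr6, which binds Cxcl16 (difference 3.85, SE 0.34, adjusted P = 0.0125), were called higher. Xcr1, which binds Xcl1, was not, as given above, and neither was the ligand Cxcl16 (difference 1.90, SE 0.56, adjusted P = 0.144). Ligands for neutrophils and B cells were not called higher. Cxcl1, a ligand for neutrophils, read 8.53, 8.16 and 7.79 on the allografts and 10.03, 9.80 and 11.92 on the controls (difference -2.43, SE 0.61, adjusted P = 0.105), and Cxcl2 did not pass the filter. Cxcl13, a ligand for B cells, read 4.62, 5.65 and 5.06 on the allografts and 5.50, 7.75 and 7.20 on the controls (difference -1.71, SE 0.64, adjusted P = 0.225). Ccl27a, a ligand for skin-homing T cells, was the member called lower (difference -1.74, SE 0.22, adjusted P = 0.0253).

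Of 55 passing cytokine and receptor genes, 17 were called higher, against 4.91% of all genes. Of these 55, 22 were above background throughout only in the allografts. Among the 33 above background on all 6 arrays, 9 were called higher, against 3.76%. Ifng, Tnf, Ltb, Fasl and Il10 rose, with Tnf reading 6.17, 6.14 and 5.99 on the allografts and 2.75, 4.17 and 4.01 on the controls (difference 2.46, SE 0.40, adjusted P = 0.042, above background on 2 of 3 controls). The chains of the interleukin 18 receptor were called higher, Il18r1 (difference 3.84, SE 0.55, adjusted P = 0.0329, above background on 2 of 3 controls) and Il18rap (not well above background on any control, at least 2.47-fold higher, adjusted P = 0.0217). Il2, Il17a and Il22 did not pass the filter, and Il6 had a difference of 0.91 (adjusted P = 0.462).

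**Figure D3:**
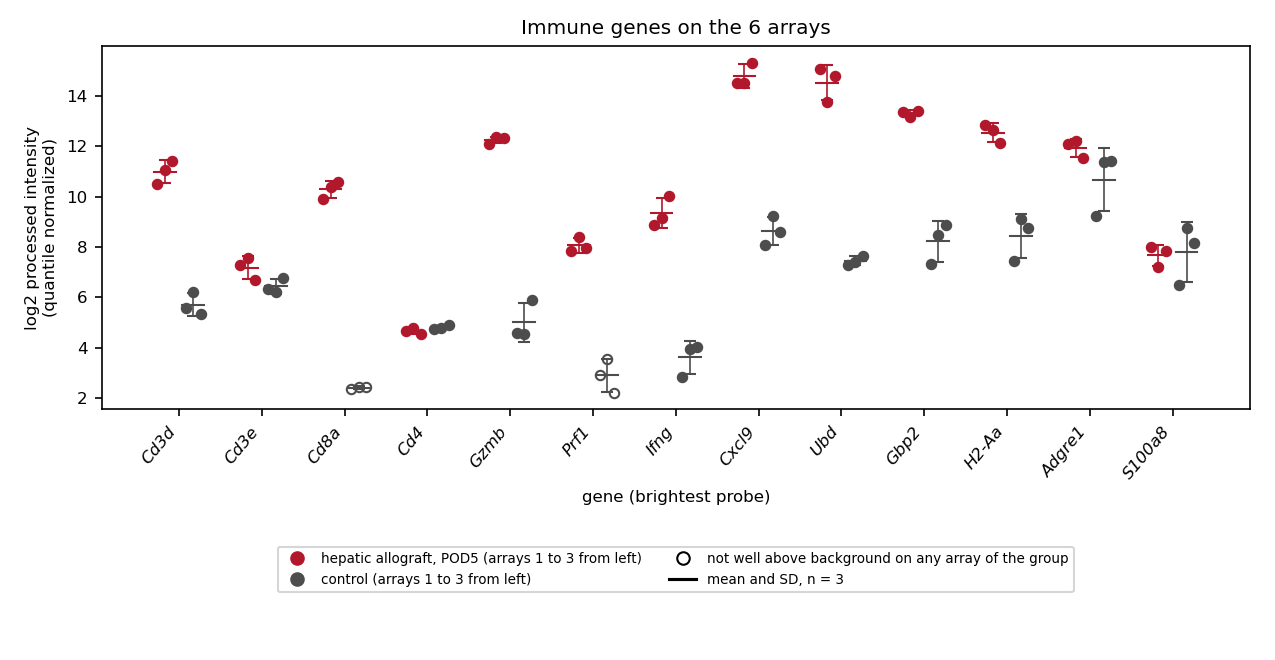
Log2 processed intensity (vertical) of 13 immune genes on the 3 hepatic allografts at POD5 (red) and the 3 controls (grey), 1 point per array with the mean and SD of the group, open where no array of the group was well above background. Cd3d, Cd8a, Gzmb, Prf1, Ifng, Cxcl9, Ubd, Gbp2 and H2-Aa stand clear of the controls, while Cd4 (difference -0.15) and S100a8 (-0.13) do not rise.

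Over all infiltrate and immune lists together, 133 of 361 passing members (36.8%) were called higher and 2 lower, against 4.91% and 1.4% of all genes, with 424 members measured. Of the 361, 107 passed only through the allografts. Among the 254 above background on all 6 arrays, 92 were called higher, against 3.76%. Without allograft 1, 2 or 3 the count called higher among the 361 was 23, 2 and 64. Without control 2 or 3 it was 74 and 82, and without control 1 it was 126. Of all genes, 0.427%, 0.015% and 1.46% were called higher without allograft 1, 2 and 3. Without control 1, 2 and 3 the share was 4.16%, 1.75% and 2.16%. With slide as a random block the immune count was 95, and with scan day as a block 65, against 2.65% and 1.49% of all genes. Only allograft 3 had another scan day, so blocking on scan day is close to leaving allograft 3 out.

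Cell division genes were called higher in number too. Of 220 measured members of the 3 division lists, 217 passed, 76 (35%) were called higher against 4.91% of all genes and 0 lower by limma, and 50 of 157 were called among those above background on all 6 arrays. The mitosis list had 57 of 98 called and a median of 2.45, and 91 members lay above all controls on every allograft, against 20% of all genes. Of the 98, 45 passed only through the allografts. Among the 53 above background on all 6 arrays, 35 were called higher, against 3.76%. With genes that no control showed above background set to their lower bound, the mitosis median was 2.16. The replication list had 16 of 73 called and a median of 1.07, with 59 separating the groups. Of its 62 members above background on all 6 arrays, 12 were called. The list of G1 cyclins and inhibitors had 3 of 46 called (6.52%) and a median of 0.30, with 3 of 42 called among those above background on all 6 arrays. The difference between the lists was not tested.

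Among replication genes, Cdc6, which loads the replicative helicase, read 5.72, 5.44 and 6.34 on the allografts and was not well above background on any control, at least 4.68-fold higher (adjusted P = 0.0157). Uhrf1, which carries methylation to new DNA, read 8.80, 8.95 and 10.07 on the allografts and 5.51, 6.45 and 6.22 on the controls (difference 3.21, SE 0.43, adjusted P = 0.0289), and Cdc7, a kinase that fires origins, was called higher (not well above background on any control, at least 4.8-fold higher, adjusted P = 0.0309). The helicase itself rose in part: Mcm2, Mcm4 and Mcm6 were called higher, with Mcm6 at 12.41, 12.47 and 12.76 on the allografts and 9.75, 10.70 and 10.60 on the controls (difference 2.20, SE 0.29, adjusted P = 0.0282). Mcm5 read 10.17, 10.09 and 10.09 on the allografts and 6.40, 8.17 and 8.01 on the controls (difference 2.59, SE 0.50, adjusted P = 0.0587), above every control but not called, with control 1 below the other controls. Pcna, the sliding clamp, read 12.27, 12.17 and 12.57 on the allografts and 10.28, 11.10 and 11.16 on the controls (difference 1.49, SE 0.28, adjusted P = 0.0582). Mcm10 (difference -1.55, SE 0.28, adjusted P = 0.0516), a replication initiation factor, was among the 6 passing members with a negative difference and was not called.

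Among mitosis genes, Aurkb, a kinase of the chromosomal passenger complex, read 6.68, 6.82 and 6.96 on the allografts and was not well above background on any control, at least 9.28-fold higher (adjusted P = 0.0278). Top2a, which untangles replicated chromosomes, read 7.70, 7.75 and 8.39 on the allografts and 3.15, 4.78 and 4.88 on the controls (difference 3.68, SE 0.53, adjusted P = 0.0329, above background on 2 of 3 controls). Tpx2, which builds the spindle, read 7.78, 7.95 and 8.47 on the allografts and 3.24, 5.25 and 4.72 on the controls (difference 3.66, SE 0.56, adjusted P = 0.0368, above background on 2 of 3 controls). Mki67, the antigen used to count dividing cells, read 10.25, 10.48 and 10.94 on the allografts and 7.43, 7.86 and 7.65 on the controls (difference 2.91, SE 0.23, adjusted P = 0.00945). In all of these the groups stood apart by more than the spread within them, and control 1 was the lowest control. Ccnb2, a mitotic cyclin, was called higher (difference 2.40, SE 0.18, adjusted P = 0.00832), while Cdk1, its partner kinase, read 8.39, 8.23 and 7.47 on the allografts and 2.59, 5.84 and 5.77 on the controls and was not (difference 3.30, SE 0.96, adjusted P = 0.14, above background on 2 of 3 controls).

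The regulators of entry into division showed less. Rbl1, an E2F-bound repressor (difference 2.19, SE 0.32, adjusted P = 0.0352), Cdkn3, a phosphatase of cyclin-dependent kinases (difference 2.09, SE 0.24, adjusted P = 0.0202), and E2f4 (difference 0.92, SE 0.14, adjusted P = 0.0348) were called higher, and all of them separated the groups. Cdkn1a, the inhibitor p21, read 7.72, 6.61 and 7.85 on the allografts and 5.82, 4.86 and 5.32 on the controls and was not called (difference 2.06, SE 0.43, adjusted P = 0.0686). Ccnd2, a G1 cyclin of lymphocytes among other cells, read 9.52, 9.57 and 10.23 on the allografts and 8.75, 8.95 and 8.68 on the controls (difference 0.98, SE 0.23, adjusted P = 0.0926). Myc (difference 2.23, SE 0.52, adjusted P = 0.0905) and Chek1 (not well above background on any control, at least 2.14-fold higher, adjusted P = 0.0582) were not called either.

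Windows before the start sites of mitosis genes are shown for the same reason as above. The letters TTTGAA, which mark the cell cycle genes homology region (CHR), and CCAAT, the site of NF-Y, were searched on both strands of the 250 bases before each start. Of 89 windows of 82 mitosis genes, 32 (36%) held TTTGAA against 16% of all windows, and 26 (29.2%) held both against 5.55%. Among windows of genes past the background filter the shares were 11.5% and 4.16%. Among windows of mitosis genes called higher they were 34.8% and 30.4%. The list was made of genes known to act in mitosis, so these shares describe the list. In the replication list 7 of 66 windows (10.6%) held both. Top2a and Ckap2l had the largest differences among called members with a single window that held both. In Top2a (chr11:99024190-99024439, minus strand) TTTGAA on either strand began 179 and 23 bases before the start, beside 6 CCAAT letters on either strand, and in Ckap2l (chr2:129297213-129297462, minus strand) it began 30 bases before the start, between CCAAT letters at 40 and 14 bases. No TTTGAA letters overlapped CCAAT letters in these windows.
Top2a: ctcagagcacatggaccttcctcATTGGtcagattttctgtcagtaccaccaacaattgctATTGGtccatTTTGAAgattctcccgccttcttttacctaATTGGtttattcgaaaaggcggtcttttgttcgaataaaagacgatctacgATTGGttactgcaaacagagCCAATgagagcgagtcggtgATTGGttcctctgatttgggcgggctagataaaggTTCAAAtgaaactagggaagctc
Ckap2l: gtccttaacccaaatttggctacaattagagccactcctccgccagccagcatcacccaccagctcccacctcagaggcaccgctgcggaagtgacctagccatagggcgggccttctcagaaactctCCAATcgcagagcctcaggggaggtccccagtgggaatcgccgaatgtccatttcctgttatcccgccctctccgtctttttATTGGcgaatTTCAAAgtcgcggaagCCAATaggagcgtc

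**Figure D4:**
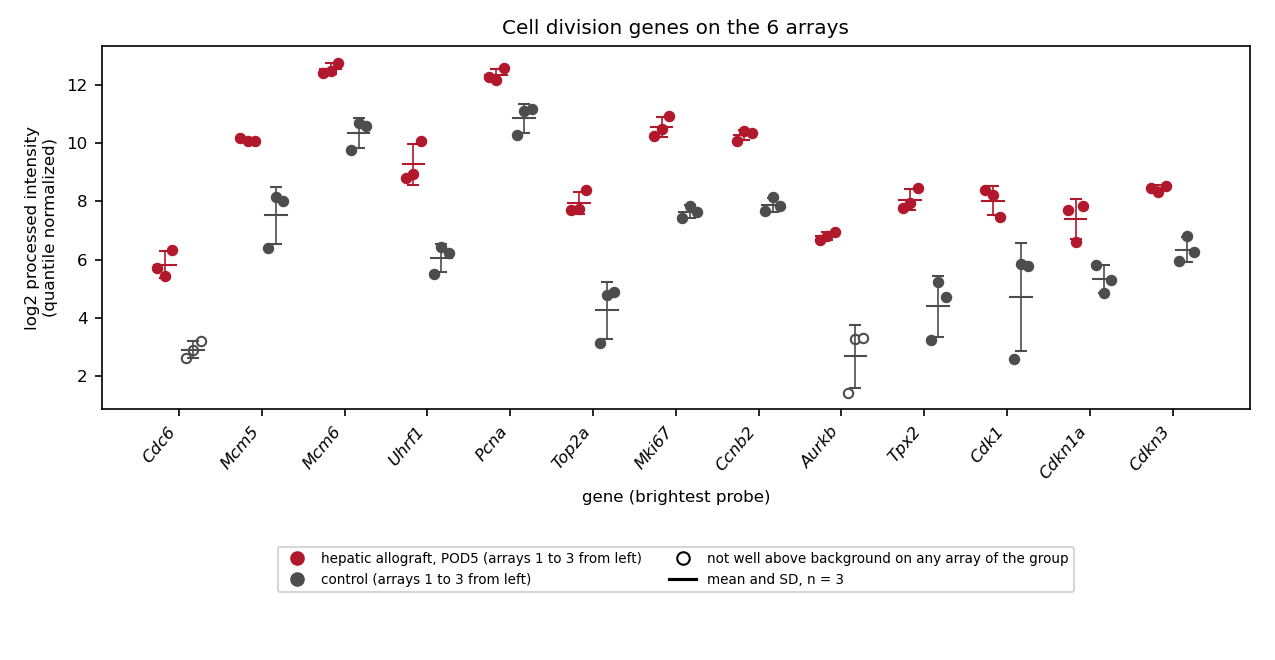
Log2 processed intensity (vertical) of 13 cell division genes on the 3 hepatic allografts at POD5 (red) and the 3 controls (grey), 1 point per array with the mean and SD of the group, open where no array of the group was well above background. Every allograft lies above every control in all genes drawn, from Cdc6 to Cdkn3, and control 1 is the lowest control of Mcm5, Top2a, Tpx2 and Cdk1.

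Without allograft 1, 2 or 3 the count of division genes called higher was 5, 0 and 23, against 0.427%, 0.015% and 1.46% of all genes. Without control 2 or 3 it was 28 and 26, against 1.75% and 2.16% of all genes. Without control 1 it was 67, against 4.16%, all by limma. With allograft 2 left out, 6619 probes still had an unadjusted P under 0.05. The T cell markers above moved in the same samples as the division genes, and their part in the division counts was not tested.

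Few hepatocyte genes were called, and most of those were lower. Of 534 measured members of the hepatocyte lists, 528 passed, 14 (2.65%) were called lower against 1.4% of all genes and 8 (1.52%) higher against 4.91%. The median difference was -0.27 against -0.07 over all probes, with 368 passing members negative and 155 positive. All 3 allografts lay below all 3 controls in 148 members and above them in 46. Among members above background on all 6 arrays, 14 were called lower and 7 higher of 516. These counts depended on the scaling: with each array scaled to its 75th percentile, 44 members were called lower and 12 higher. Of all genes, 1.29% were called lower and 5.97% higher under that scaling. The median over all probes moved from -0.07 to -0.37. Without allograft 1, 2 or 3 the count called lower was 1, 0 and 0, without control 1, 2 or 3 it was 3, 1 and 7, and with slide as a random block 2. Of all genes, 0.0225%, 0% and 0.0675% were called lower without allograft 1, 2 and 3. Without control 1, 2 and 3 the share was 0.495%, 0.0975% and 0.397%, and with slide as a random block 0.33%.

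The products hepatocytes are best known for were not called, as 3 of them show. Alb, which encodes albumin, read 18.00, 18.00 and 17.97 on the allografts and 17.88, 17.97 and 17.76 on the controls (difference 0.12, SE 0.11, adjusted P = 0.607). Ttr, a carrier of thyroid hormone, read 11.96, 12.19 and 11.83 on the allografts and 11.47, 12.01 and 12.02 on the controls (difference 0.16, SE 0.21, adjusted P = 0.706). Apoa1, the main protein of high-density lipoprotein, read 15.61, 15.66 and 15.91 on the allografts and 15.57, 16.25 and 16.21 on the controls (difference -0.28, SE 0.23, adjusted P = 0.546). Quantile normalization gives the brightest probes of every array nearly the same values, and under 75th percentile scaling Alb had a difference of -1.06 and Ttr of -0.13. The list of plasma proteins had 48 of 63 members negative with a median of -0.31, and 1 (1.59%) was called lower, against 1.4% of all genes. That member was Igf1, the growth factor that carries the signal of growth hormone, at 13.32, 13.63 and 13.29 on the allografts and 14.33, 14.46 and 14.57 on the controls (difference -1.04, SE 0.15, adjusted P = 0.0332). Igfals, its partner in plasma, read 9.61, 10.20 and 8.56 on the allografts and 10.25, 11.35 and 11.38 on the controls and was not called (difference -1.54, SE 0.53, adjusted P = 0.195).

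Acute phase proteins, which hepatocytes make under inflammatory cytokines, were not called after quantile normalization of the 6 arrays. Of 26 members, 0 passed in either direction by limma, by the methods' t-test or by the methods' standardized fold change (SFC), which scales a difference of medians by the differences of probes of like signal, each after Benjamini-Hochberg adjustment, and 5 had an unadjusted P under 0.05. Of the same members 20 had a negative difference, and the median was -0.16. With 75th percentile scaling 3 were called lower, against 1.29% of all genes, and the median was -0.90, against -0.37 over all probes. With normexp 2 were called lower, and 1 fit of 5 groups called 1 higher and 1 lower. With either background filter, with RefSeq-named probes alone, or without control 3, 1 was called lower. Saa1, serum amyloid A, read 17.76, 18.12 and 18.37 on the allografts and 18.12, 18.07 and 18.19 on the controls. Hp, haptoglobin, read 18.12, 18.04 and 18.19 on the allografts and 18.00, 18.12 and 18.37 on the controls. The groups overlapped in both. Lcn2 (difference 1.17, SE 0.72, adjusted P = 0.416) and Il1rn (difference 1.31, SE 0.43, adjusted P = 0.181) had the largest positive differences and were not called. The controls of this list ranged widely, with a mean log2 signal of 13.44, 14.02 and 14.33 against 13.82, 13.88 and 13.76 on the allografts.

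Complement components fell in part. Masp2, a protease of the lectin pathway, read 12.13, 12.41 and 12.07 on the allografts and 13.43, 13.42 and 13.16 on the controls (difference -1.13, SE 0.15, adjusted P = 0.0296). Hc, which encodes C5, read 15.68, 15.75 and 15.84 on the allografts and 16.41, 16.41 and 16.45 on the controls (difference -0.67, SE 0.11, adjusted P = 0.0434). These were the 2 (9.09%) called of 22, against 1.4% of all genes called lower. C4b read 11.33, 11.94 and 11.31 on the allografts and 14.99, 12.82 and 15.68 on the controls and was not called (difference -2.97, SE 0.77, adjusted P = 0.11), although every allograft lay below every control, with control 2 well below the other controls. C4a read 6.18, 6.41 and 3.85 on the allografts and 6.55, 6.79 and 7.52 on the controls (difference -1.47, SE 0.75, adjusted P = 0.337). Both C4 genes lie in the H-2 complex, at which donor and recipient strains differ, and the part of the strain in their values was not tested. The terminal components C6, C8a and C9 had differences of -1.51, -1.07 and -0.85 and were not called, while Cfp, which leukocytes make, had one of 0.91.

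Cytochrome P450 enzymes gave few calls. Of 59 members, 3 (5.08%) were called lower and 1 (1.69%) higher, against 1.4% and 4.91% of all genes. Cyp7b1, a hydroxylase of oxysterols on the alternative route to bile acids, read 11.96, 12.96 and 12.68 on the allografts and 14.10, 14.15 and 14.51 on the controls (difference -1.72, SE 0.30, adjusted P = 0.0477). Cyp2u1 (difference -1.31, SE 0.14, adjusted P = 0.0176) and Cyp4f15 (difference -1.21, SE 0.18, adjusted P = 0.034), which act on fatty acids, fell as well. Cyp26a1, which degrades retinoic acid, read 11.18, 11.66 and 11.32 on the allografts and 9.39, 8.96 and 9.55 on the controls and was called higher (difference 2.09, SE 0.22, adjusted P = 0.0171). The main drug-metabolising enzymes were not called in either direction: Cyp2e1 read 14.32, 15.04 and 13.85 on the allografts and 15.14, 15.40 and 15.78 on the controls (difference -1.04, SE 0.35, adjusted P = 0.19), Cyp1a2 had a difference of -0.25 and Cyp3a11 one of 1.07.

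Among conjugating enzymes the calls were all rises. Of 59 passing members 4 (6.78%) were called higher, a share near the 4.91% of all genes, and 0 lower. These were the glutathione S-transferases Gsta2, Gsta1 and Gstm1, which join glutathione to reactive compounds, and Ugt2b35, a glucuronosyltransferase. Gsta2 read 13.95, 13.03 and 12.92 on the allografts and 10.38, 9.51 and 9.50 on the controls (difference 3.51, SE 0.39, adjusted P = 0.0187). Gsta1 read 15.13, 14.58 and 14.17 on the allografts and 12.21, 12.62 and 12.70 on the controls (difference 2.12, SE 0.29, adjusted P = 0.0298). Gstm1 read 18.04, 17.97 and 17.84 on the allografts and 16.91, 16.93 and 16.55 on the controls (difference 1.15, SE 0.15, adjusted P = 0.0287). The allografts lay above the controls in each, though near-identical copies within these families may share probes. Gstm2, Gstm3 and Gsta4 had differences of 1.28, 1.62 and 0.98 and were not called.

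Bile acid synthesis and transport held the largest called fall of any hepatocyte gene. Slc22a7, the organic anion transporter OAT2 of the sinusoidal membrane, read 7.84, 9.19 and 9.66 on the allografts and 12.02, 12.17 and 12.07 on the controls (difference -3.19, SE 0.48, adjusted P = 0.0363). The 3 controls lay within a narrow range and every allograft far below it. Cyp8b1, which makes cholic acid, read 3.79, 7.83 and 4.77 on the allografts and 7.27, 7.52 and 8.02 on the controls and was not called (difference -2.14, SE 1.07, adjusted P = 0.328). Cyp7a1, the rate-limiting enzyme of the classical route, read 10.65, 9.89 and 8.85 on the allografts and 7.86, 10.05 and 9.90 on the controls, with the groups overlapping. The uptake transporter Slc10a1 (difference -0.40, SE 0.95, adjusted P = 0.849) and the export pump Abcb11 (difference -0.19, SE 0.23, adjusted P = 0.679) were not called, and neither was the efflux pump Abcc4 (difference 1.76, SE 0.34, adjusted P = 0.0605).

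Fatty acid oxidation genes lay lower almost throughout, and few were called. Of 47 passing members 40 had a negative difference, and 24 lay below all controls on every allograft, against 18.4% of all genes. The median was -0.55, and 4 members (8.51%) were called lower, against 1.4% of all genes. Ppara, the nuclear receptor that turns the pathway on, read 10.53, 10.81 and 10.52 on the allografts and 11.96, 12.15 and 11.53 on the controls (difference -1.26, SE 0.20, adjusted P = 0.0417). Acot12, a thioesterase of acetyl-CoA (difference -0.97, SE 0.13, adjusted P = 0.0296), and Eci2, an isomerase of unsaturated fatty acids (difference -0.90, SE 0.14, adjusted P = 0.0385), were called lower too. Cpt1a, which lets fatty acids into mitochondria, read 11.56, 11.92 and 10.88 on the allografts and 12.73, 12.33 and 12.75 on the controls and was not called (difference -1.15, SE 0.30, adjusted P = 0.114), though every allograft lay below every control. The list's mean log2 signal was 11.33, 11.36 and 11.21 on the allografts and 11.89, 11.82 and 11.72 on the controls. Of 57 lipid and cholesterol synthesis genes 0 were called by limma or by the methods' t-test, SFC called 1 higher and 1 lower, and 10 had an unadjusted P under 0.05 by limma. The list's median was -0.16, and Scd1, its brightest member, had overlapping groups (difference 0.80, SE 0.68, adjusted P = 0.559).

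Hepatocyte transcription factors lay lower with hardly an exception. Of 38 passing members 36 had a negative difference, with a median of -0.56, and 16 lay below all controls on every allograft, again against 18.4%. Of the 38, 2 (5.26%) were called lower against 1.4% of all genes, Ppara among them. Factors with a daily rhythm, Dbp (-0.99), Tef (-1.12) and Hlf (-1.02), were negative and not called, and the hour at which tissue was taken was not given in the sources used here. Hnf4a, which maintains hepatocyte identity, read 11.08, 11.17 and 10.58 on the allografts and 10.82, 11.10 and 11.20 on the controls (difference -0.10, SE 0.21, adjusted P = 0.833), and Cebpa, a partner of it, had a difference of -0.53 (adjusted P = 0.155). The exceptions above 0 were Cebpb (0.20) and Cebpd (1.45), factors of the acute phase, which were not called. The mean log2 signal of the list was 9.66, 9.7 and 9.6 on the allografts and 10.28, 10.23 and 10.21 on the controls.

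Amino acid and glucose metabolism showed few calls. Of 60 urea cycle and amino acid genes, 1 (1.67%) was called lower, against 1.4% of all genes. It was Prodh2, which breaks down hydroxyproline, at 11.97, 12.63 and 12.31 on the allografts and 13.88, 13.58 and 13.39 on the controls (difference -1.31, SE 0.23, adjusted P = 0.0477). The urea cycle enzymes Otc (-0.40), Ass1 (0.07), Asl (-0.21) and Arg1 (1.13) were not called. In the glucose list 3 of 34 members (8.82%) were called higher, against 4.91% of all genes. They were Pfkp (difference 2.71, SE 0.13, adjusted P = 0.00558), Slc2a3 (difference 2.19, SE 0.37, adjusted P = 0.0445, above background on 2 of 3 controls) and Hk1 (difference 1.75, SE 0.19, adjusted P = 0.0176). These are a phosphofructokinase, a glucose transporter and a hexokinase known mainly from cells other than hepatocytes, leukocytes among them. Which cells carried them in these arrays was not tested. The liver's own forms Slc2a2 (-0.14), Pklr (-0.34) and G6pc (-0.53) were not called.

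Hepatocyte genes were also grouped by their known position in the lobule. Of 28 pericentral genes 13 lay below all controls on every allograft, against 5 of 28 periportal ones and 18.4% of all genes. The medians were -0.42 and -0.01. Of the pericentral genes 1 was called higher, Gstm1, given above, and 1 lower (3.57% each), against 4.91% and 1.4% of all genes. Of the periportal genes 0 were called higher and 1 (3.57%) lower. Slc1a2, a glutamate transporter of the innermost hepatocytes, was called lower at 9.96, 10.31 and 9.80 on the allografts and 11.47, 11.28 and 11.39 on the controls (difference -1.36, SE 0.17, adjusted P = 0.0245). Glul, glutamine synthetase of the same cells, read 13.53, 13.62 and 13.69 on the allografts and 14.98, 14.41 and 14.27 on the controls (difference -0.94, SE 0.22, adjusted P = 0.0868). Lgr5, a receptor that strengthens Wnt signals there, read 6.48, 6.66 and 6.40 on the allografts and 9.28, 8.02 and 7.61 on the controls (difference -1.79, SE 0.45, adjusted P = 0.103). Both lay below every control and were not called. Wnt2 (difference -0.89, SE 0.26, adjusted P = 0.14) and Wnt9b (difference -1.20, SE 0.26, adjusted P = 0.0791), the ligands that central endothelium sends, were not called. On the periportal side, Igf1 was the member called lower, and Ctsc, a protease that leukocytes also express, had a difference of 2.05. The difference between the zones was not tested.

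Genes that are known to be higher in the livers of male mice had the most negative median of the hepatocyte lists, with few called. Of 23 members, 3 were called lower against 1.4% of all genes, 14 lay below all controls on every allograft against 18.4%, and the median was -1.07. The called members were Cyp7b1, Cyp2u1 and Igf1, given above. Hsd3b5, a steroid dehydrogenase, read 6.08, 10.12 and 10.44 on the allografts and 12.65, 13.20 and 13.04 on the controls (difference -4.08, SE 1.22, adjusted P = 0.147), so allograft 1 lay far below allografts 2 and 3, which themselves lay below every control. Moxd1 read 2.44, 2.29 and 4.41 on the allografts and 6.23, 9.57 and 9.37 on the controls (difference -5.34, SE 1.1, adjusted P = 0.0684, above background on 1 of 3 allografts). Elovl3, an elongase of very long fatty acids, read 8.95, 8.98 and 9.57 on the allografts and 12.69, 11.28 and 8.44 on the controls with the groups overlapping (difference -1.64, SE 1.09, adjusted P = 0.453). Cyp4a12a, a hydroxylase of fatty acids, read 10.79, 11.33 and 10.29 on the allografts and 12.49, 12.40 and 12.27 on the controls (difference -1.58, SE 0.28, adjusted P = 0.0513). Growth hormone maintains this pattern in males, and its receptor Ghr had a difference of -0.74 (adjusted P = 0.318). The 4 Y-linked genes measured were well above background on all 6 arrays, and the paper describes its mice as male. Among these genes were Eif2s3y (difference -0.13, SE 0.19, adjusted P = 0.746) and Ddx3y (difference -1.23, SE 0.28, adjusted P = 0.0876).

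**Figure D5:**
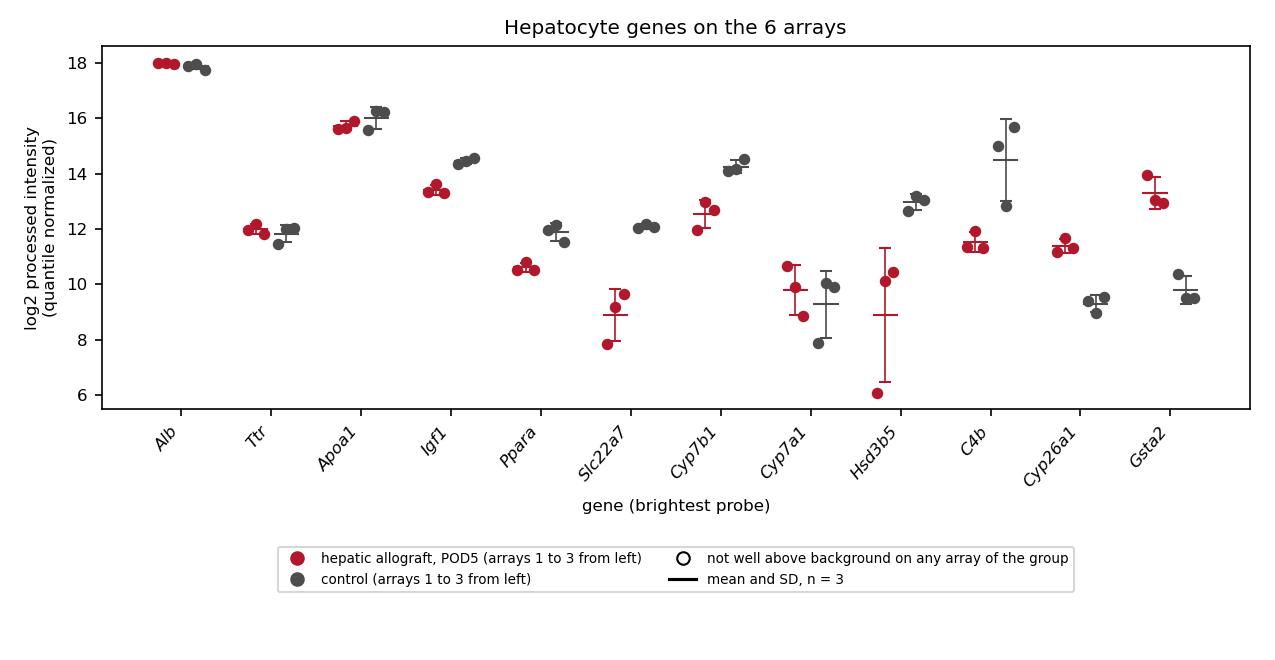
Log2 processed intensity (vertical) of 12 hepatocyte genes on the 3 hepatic allografts at POD5 (red) and the 3 controls (grey), 1 point per array with the mean and SD of the group. Igf1, Ppara, Slc22a7 and Cyp7b1 lie below the controls and Cyp26a1 and Gsta2 above them, while Alb (difference 0.12), Ttr (0.16) and Cyp7a1 (0.53) stay level or overlap.

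Other liver cells gave single calls. Of passing bile duct genes 7.41% were called higher and 0 lower, against 4.91% and 1.4% of all genes. For stellate cell and matrix genes the shares were 5.66% and 1.89%, and for endothelial genes 2.33% each. In the bile duct list Itga6 (difference 1.90, SE 0.29, adjusted P = 0.0372) and Ggt1 (not well above background on any control, at least 1.86-fold higher, adjusted P = 0.0237) were called higher, and the duct keratin Krt19 was not (difference 0.50, SE 0.52, adjusted P = 0.631). Among stellate cell and matrix genes, Thbs1, a matrix protein that activates TGF-beta, read 5.40, 5.02 and 6.58 on the allografts and 1.15, 2.67 and 1.25 on the controls (not well above background on any control, at least 4.17-fold higher, adjusted P = 0.0355). Mmp13, a collagenase, was called higher (not well above background on any control, at least 3.47-fold higher, adjusted P = 0.0298). Vim, of the cytoskeleton of leukocytes and mesenchymal cells, read 12.68, 12.94 and 13.36 on the allografts and 9.09, 10.29 and 10.35 on the controls (difference 3.09, SE 0.40, adjusted P = 0.0272). Reln, a product of quiescent stellate cells and endothelium, was called lower at 7.64, 7.81 and 7.54 on the allografts and 9.95, 9.67 and 9.89 on the controls (difference -2.17, SE 0.14, adjusted P = 0.0072). The collagens Col1a1 (-0.15) and Col3a1 (0.56) were not called. In endothelium the adhesion molecule Vcam1, which holds leukocytes, read 11.14, 11.23 and 11.34 on the allografts and 8.35, 9.01 and 9.49 on the controls (difference 2.29, SE 0.31, adjusted P = 0.0284). Vwf, a marker of larger vessels, was called lower (difference -1.28, SE 0.17, adjusted P = 0.0272), while the sinusoidal receptors Stab1 (0.18), Stab2 (-0.40) and Lyve1 (1.58) were not called.

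Lists that check the tissue held few calls. Of 38 stress genes, 0 were called by limma or by the methods' t-test, SFC called 3 higher and 1 lower, and 11 had an unadjusted P under 0.05 by limma, with Gpx1 (difference -0.12, SE 0.18, adjusted P = 0.753) and Fth1 (difference 0.66, SE 0.13, adjusted P = 0.0679) the brightest of them. Alas2, of haem synthesis in red cell precursors, was the single erythroid member called lower (difference -1.82, SE 0.29, adjusted P = 0.0412), and the mean log2 signal of genes from pancreas, gut, heart and muscle was 3.85 to 3.89 on the allografts and 3.9 to 3.92 on the controls. In that list Actc1, cardiac actin, was called higher (difference 1.82, SE 0.28, adjusted P = 0.0387). Reference genes had a median of 0.34 with 0 of 17 called by limma, the methods' t-test or SFC, and 5 with an unadjusted P under 0.05 by limma. Rps18 (0.39) and Rplp0 (0.34), its brightest members, turned to -0.43 and -0.45 under 75th percentile scaling, and Fth1 to -0.36, so a direction for such bright genes depended on the scaling.

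The 10 largest called falls mixed genes of several roles. Besides Slc22a7 and Reln they were Dct, Nat8, Dnase1, Kcnj16, Gm6460, Susd4, Sftpa1 and Ankrd2. Nat8, an acetyltransferase of kidney and liver, read 8.55, 8.97 and 8.67 on the allografts and 11.15, 11.90 and 12.30 on the controls (difference -3.05, SE 0.33, adjusted P = 0.0176). Dct, known from pigment cells, read 5.84, 7.03 and 6.91 on the allografts and 9.78, 9.79 and 9.57 on the controls (difference -3.12, SE 0.35, adjusted P = 0.0187). Susd4, an inhibitor of complement, read 7.27, 7.62 and 7.98 on the allografts and 9.61, 10.19 and 10.37 on the controls (difference -2.43, SE 0.28, adjusted P = 0.0208). Dnase1 read 4.44, 4.74 and 5.14 on the controls and was not well above background on any allograft (at least 4.08-fold lower, adjusted P = 0.0237). Kcnj16, Gm6460, Sftpa1 and Ankrd2 were called lower with adjusted P of 0.00849, 0.0278, 0.021 and 0.031, and in all 10 the allografts lay below every control, as the rule for naming them required.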

How the data were processed

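RNA of whole grafts and control livers was measured on 1-colour Agilent arrays, and the authors deposited the processed intensity of every spot, which Agilent Feature Extraction 10.5.1.1 (protocol GE1_105_Dec08) had corrected for background and spatial trend, with no normalization between arrays. Outlier-marked spots (65 to 92 an array) were left out, and spots of 1 probe were averaged. No spot of the 6 arrays was saturated (0 spots). Log2 values were quantile normalized over the 6 arrays in R 4.3.3, and 41155 probes were tested with limma 3.58.1 (lmFit, eBayes, 2 groups of 3 arrays, Benjamini-Hochberg adjusted P under 0.05), which was first tested on simulated data. Arrays give no counts, so the number of arrays limits the precision.

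Of 41174 probes that were no controls, 26690 (64.8%) matched a RefSeq accession with a gene symbol. A gene was its brightest probe, and it passed the background filter where at least 0.5 of the probe's spots were marked well above background on each of the 3 arrays of either group. For a gene that no array of a group showed well above background, the fold is a lower bound, from the bright group's mean against, on each dim array, the higher of its lowest signal well above background and the probe's own. The 36 gene lists (1400 of 1480 genes matched) and the comparison were chosen with earlier results of these data known. Named were the 10 largest called rises and falls, up to 3 called genes per list and direction (the 2 brightest where none was called), and fixed markers of tissue, infiltrate and division, 91 genes in all, beside further list members given by their role, and some genes are not reported here. Motifs were read from RefSeq promoter windows (GRCm38.p6) with Python 3.11.15. Alternatives covered the normalization, background correction, filters, prior, samples in the fit, blocks, the methods' t-test and standardized fold change (SFC, bin of 1000 probes), Bonferroni adjustment and leaving out each array. The other 9 arrays entered only the fits over all 15.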

Additional observations from a re-analysis of the deposited data

How the results depend on the processing

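Counts are given as probes called higher, lower and in all, then immune and division genes higher, then hepatocyte genes lower and higher (1096, 410, 1506, 133, 76, 14 and 8 in the report). They were 1232, 405, 1637, 150, 100, 44 and 12 with 75th percentile scaling, 982, 317, 1299, 123, 71, 8 and 8 with quantile normalization over 15 arrays, and 1194, 575, 1769, 154, 97, 33 and 15 with normexp. Over probes well above background in at least 1 group they were 1663, 637, 2300, 189, 120, 32 and 16, on all 6 arrays 967, 590, 1557, 126, 70, 31 and 16, and over RefSeq-named probes 1133, 368, 1501, 166, 100, 20 and 13. A trended and robust prior gave 1034, 219, 1253, 141, 79, 18 and 10, and 1 fit of 5 groups 3329, 2878, 6207, 215, 146, 67 and 26. Slide as a random block gave 562, 107, 669, 95, 42, 2 and 5, and scan day as a block 347, 24, 371, 65, 23, 0 and 3. Only allograft 3 had another scan day, so blocking on scan day is close to leaving allograft 3 out. SFC with Benjamini-Hochberg adjustment gave 1043, 192, 1235, 135, 73, 11 and 12, and with Bonferroni 322, 39, 361, 81, 6, 4 and 1. The methods' t-test gave 175, 54, 229, 35, 7, 1 and 1, and with Bonferroni 4, 1, 5, 1, 0, 0 and 0. Limma with Bonferroni gave 6, 0, 6, 3, 0, 0 and 0. Keeping outlier-marked spots moved none of these 7 counts by over 1.5 times. The causes were not tested, apart from the number of probes or arrays an alternative itself changes. The share of calls that were higher, 72.8% in the report, was 62.1% over probes above background on all 6 arrays, 53.6% with 5 groups, 84% with slide and 93.5% with scan day. Scaling to the 75th percentile moved the median over all probes from -0.07 to -0.37.

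Leaving out 1 array gave 3 to 901 probes higher, 0 to 215 lower and 3 to 1116 in all, 2 to 126 immune and 0 to 67 division genes higher, and 0 to 7 hepatocyte genes lower and 0 to 9 higher, the lowest each without allograft 2. Without control 1 and allograft 3, an alternative added after seeing the data, all 7 counts were 0 by limma, with 8625 probes at an unadjusted P under 0.05.

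The replicate number as a block gave 0 in all 7 counts by limma, with 6528 probes at an unadjusted P under 0.05. Same-numbered arrays had deviations from their group means that correlated at -0.10, -0.13 and -0.15, so the numbers did not pair the arrays.

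Of the named genes, these changed sign or came to 0.00. With 75th percentile scaling the differences were -0.36 for Fth1, -0.43 for Rps18, -0.45 for Rplp0, -1.06 for Alb and -0.13 for Ttr. With normexp Hp was at 0.07, and with SFC, under both adjustments, Hp and Saa1 were at 0.00 and Ttr at -0.05. Leaving out 1 array gave -0.19 (without allograft 3) to 0.12 (without allograft 1) for Saa1, -0.22 (control 1) to 0.02 (allograft 2) for Gpx1, -0.02 (control 1) to 0.25 (control 3) for Ttr, and -0.79 (control 1) to 0.35 (control 2) for S100a8, which was at 0.11 without allograft 2 and 0.05 without control 3. Hp was at 0.06 without control 3. Over all named genes and alternatives, 1292 values kept their direction and side of the threshold, 832 kept only their direction and lost the call, 16 gained a call and 19 changed sign or came to 0.00.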

Other observations

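Of the 842 genes called past the background filter, 599 belonged to none of the lists, and those named here were chosen after their values were seen. The first enzymes of serine synthesis were called higher. Phgdh, which starts the pathway, read 9.71, 9.78 and 10.86 on the allografts and 6.11, 7.01 and 6.40 on the controls (difference 3.61, SE 0.41, adjusted P = 0.0192). Psat1, the next enzyme, read 8.49, 8.24 and 8.93 on the allografts and 5.05, 6.04 and 5.17 on the controls (difference 3.13, SE 0.34, adjusted P = 0.0176). The groups stood apart in both. The chains of the integrin with which lymphocytes bind Vcam1 and the gut addressin were both called higher. Itga4 read 8.41, 8.68 and 8.75 on the allografts and 5.73, 5.37 and 4.95 on the controls (difference 3.26, SE 0.24, adjusted P = 0.00813). Itgb7 read 10.74, 11.01 and 11.41 on the allografts and 7.41, 7.80 and 7.36 on the controls (difference 3.53, SE 0.23, adjusted P = 0.0072). Further surface and signalling proteins of lymphocytes had larger differences, among them Spn, the leukocyte sialophorin, at 10.30, 10.84 and 11.40 on the allografts and 6.14, 6.11 and 5.95 on the controls (difference 4.78, SE 0.29, adjusted P = 0.0072), and Dusp2, a phosphatase of activated T cells, at 10.02, 9.92 and 10.86 on the allografts and 5.74, 5.94 and 5.82 on the controls (difference 4.43, SE 0.28, adjusted P = 0.0072). Of transcription factors that act in lymphocytes, Batf was called higher (difference 3.19, SE 0.46, adjusted P = 0.0335), and Gfi1 (not well above background on any control, at least 4.95-fold higher, adjusted P = 0.00602), Myb (not well above background on any control, at least 6.9-fold higher, adjusted P = 0.0241) and Zbtb32 (not well above background on any control, at least 14.7-fold higher, adjusted P = 0.0105) were called higher as well.

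Enzymes of activated macrophages outside the lists were called higher too. Acod1, which makes itaconate, read 9.31, 9.44 and 9.40 on the allografts and 5.36, 6.66 and 6.33 on the controls (difference 3.27, SE 0.35, adjusted P = 0.0176). Ch25h, which makes an oxysterol that draws lymphocytes after a further step, read 8.87, 7.88 and 9.28 on the allografts and 4.04, 4.52 and 4.65 on the controls (difference 4.27, SE 0.40, adjusted P = 0.0139, above background on 2 of 3 controls). The enzyme of that further step is Cyp7b1, which was called lower. On the lower side, Enho, which encodes the liver hormone adropin, read 10.86, 11.01 and 11.56 on the allografts and 12.86, 13.33 and 12.64 on the controls (difference -1.80, SE 0.27, adjusted P = 0.0365), and Angptl6, a secreted angiopoietin-like protein, read 8.93, 9.04 and 9.06 on the allografts and 11.10, 11.32 and 10.61 on the controls (difference -2.0, SE 0.21, adjusted P = 0.0171). Every allograft lay below every control in both.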
